A study of Oryza sativa with 51 samples.

Results

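The genes described here are the 126 rice genes with a strong daily swing in leaf RNA whose pooled daily curve was highest at clock hour 12, out of 34653 genes in the deposited table. They were chosen by their measured values. For each gene the log2(FPKM + 0.5) values of all lines and days were averaged at each clock hour, and a member had a mean of at least 5 FPKM, a difference of at least 3 log2 units between its highest and lowest hour, and its highest mean at hour 12. FPKM counts sequenced fragments relative to the length of the transcript and the size of the library. Clock hour is Zeitgeber time (ZT) taken modulo 24 h. All 126 genes that met these limits were kept, because the upper limit of 150 genes was not reached. At any hour, 1080 genes had such a swing, so the members were the share that culminated at hour 12. The swing, its size and its hour are therefore given as descriptions without a test. Differences between lines and between days were not used in the choice and were tested.

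The study followed a hybrid and its parents. LY2186 is the hybrid, SE21s is its male-sterile parent and MH86 is its restorer parent, the line whose pollen restores fertility. All 3 lines grew in the same field, and flag leaves, the uppermost leaf of each shoot, were taken during grain filling every 3 h from ZT0 to ZT48. Each line has 17 strand-specific RNA libraries, 1 per time, and hence 51 in all. Neither the light schedule nor the number of plants behind a library is given by the labels. P-values therefore measure how far these libraries scatter across times and days. How much of that scatter is technical, or lies between plants, is not known. The lines are compared as whole genotypes, with 1 hybrid and 1 pair of parents.

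In plants a circadian clock of transcription factors keeps daily time through genes that switch each other off in turn. Morning factors such as LHY repress evening genes, and the evening complex of LUX, ELF3 and ELF4, worked out mainly in Arabidopsis, represses its targets after dusk. Through such steps the clock sets hours for processes such as water transport, wall synthesis and starch use. The deposited table holds locus identifiers without gene names, and none of its identifiers matched the reference table, so symbols below come from general knowledge of rice loci and unlisted loci are given by identifier only, without a role.

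The table holds no fragment counts, so sequencing depth is unknown and counting intervals cannot be given. FPKM sums ran from 824871 to 2467820 per library, and 3 genes took 24.6% to 68.6% of a library's sum. The leaf label was checked with 11 genes of the light-harvesting antenna and Rubisco activase, whose summed level had a median of 15169 FPKM in LY2186, 15372 FPKM in SE21s and 5149 FPKM in MH86. The summed level of 5 grain marker genes ran from 20.9 to 63.0 FPKM in LY2186, from 17.0 to 35.5 FPKM in SE21s and from 33.3 to 54.8 FPKM in MH86. Of 5 floral organ markers, 0 were at 0 in every LY2186 library, 1 in every SE21s library and 1 in every MH86 library, and their summed level ran from 1.64 to 12.3 FPKM, from 1.09 to 5.96 FPKM and from 0.683 to 31.7 FPKM in the same order of lines. In bulk leaf RNA, fewer cells of a type and less RNA per cell cannot be told apart.

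The members formed a wave that climbed between clock hours 3 and 12 and declined until hour 0. Their mean levels ran from 5.36 to 743 FPKM with a median of 18 FPKM. The pooled swing was 8.11-fold to 908-fold, with a median of 15.7-fold. The median member lay 3.61 log2 units below its hour 12 level at hour 0, 3.38 below at hour 3, 1.92 below at hour 6 and 0.40 below at hour 9. After the top it lay 1.03 below at hour 15, 1.5 below at hour 18 and 2.36 below at hour 21. The climb between hours 3 and 9 was therefore steeper than the decline between hours 12 and 18. The lowest hour was 0 in 64 members, 3 in 46 and 6 in 8, and it fell at hours 15 to 21 in the other 8.

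Most members had a shoulder on the early side. The second highest hour was 9 in 80 members and 15 in 37, while 9 had it elsewhere. The hour 12 mean stood at least 2-fold above every other hour in 11 members, and in 44 members 1 further hour came within 1 log2 unit of the top. In 12 members 5 hours lay that close together, and in 1 member 6 did. Hour 12 was highest on both days in 91 members, with 107 highest at hour 12 on day 1 and 110 on day 2. The rule averaged the days, so this agreement follows in part from the choice.

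**Figure D1:**
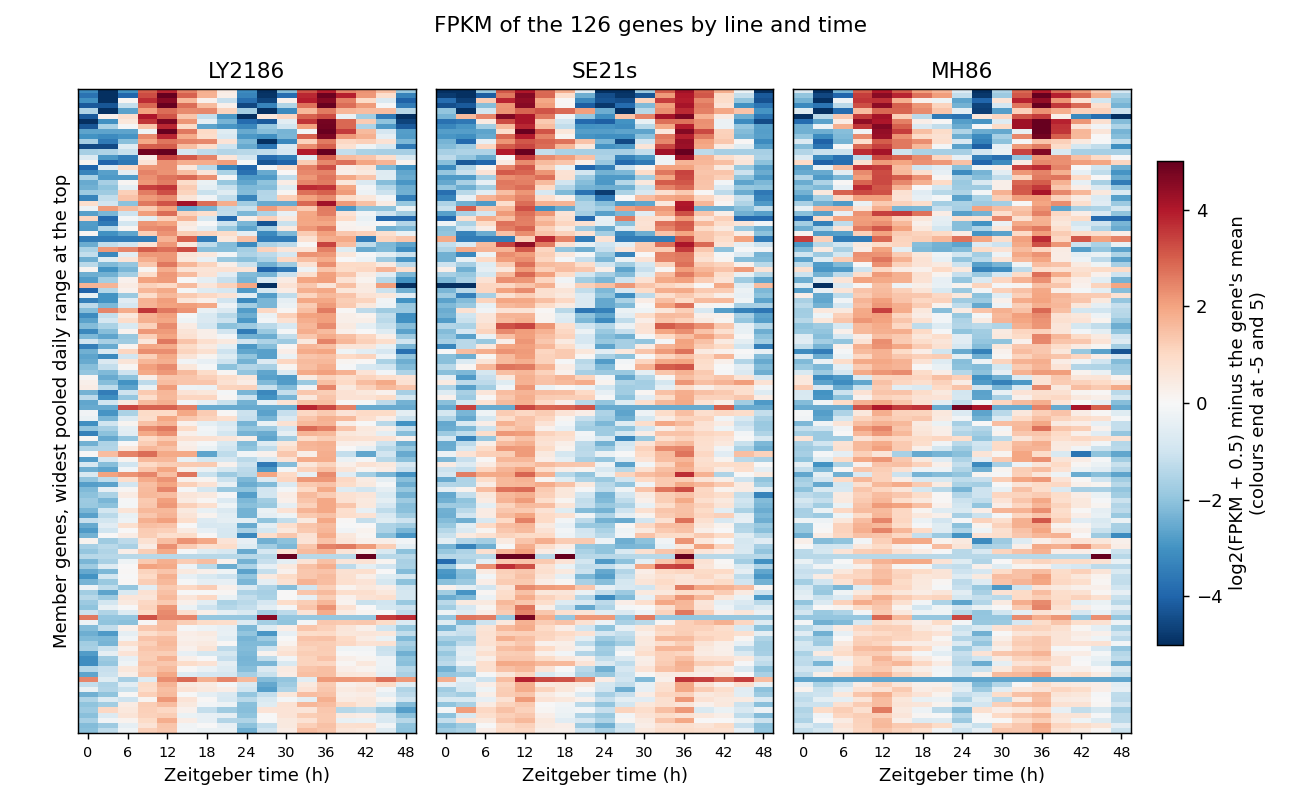
Each row is 1 of the 126 genes, sorted by pooled daily range, and each column is 1 library, ordered by Zeitgeber time (h) within LY2186, SE21s and MH86. Colour gives log2(FPKM + 0.5) minus the gene's mean over all 51 libraries. The red bands at ZT9 to ZT15 and ZT33 to ZT39 appear in each line, and a few rows, which hold exact zeros, are patchy.

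The wave was seen in each of the 3 lines, with small differences in where single genes culminated. The rule averaged the 3 lines, so their agreement follows in part from the choice. Hour 12 was the highest hour in 104 members in LY2186, in 100 in SE21s and in 101 in MH86, and 67 members had it in all 3 lines. In LY2186 14 members were highest at hour 9 and 2 at hour 15. In SE21s 17 were highest at hour 9 and 4 at hour 15. In MH86 8 were highest at hour 9 and 11 at hour 15. The median swing within a line was 4.37 log2 units in LY2186, 4.33 in SE21s and 3.95 in MH86. A swing of at least 3 log2 units was present in all 126 members in LY2186, in 116 in SE21s and in 100 in MH86. At ZT12 and ZT36 the median member stood at 44.9 and 43.8 FPKM in LY2186, at 48.7 and 47.6 FPKM in SE21s and at 40.3 and 41.5 FPKM in MH86.

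**Figure D2:**
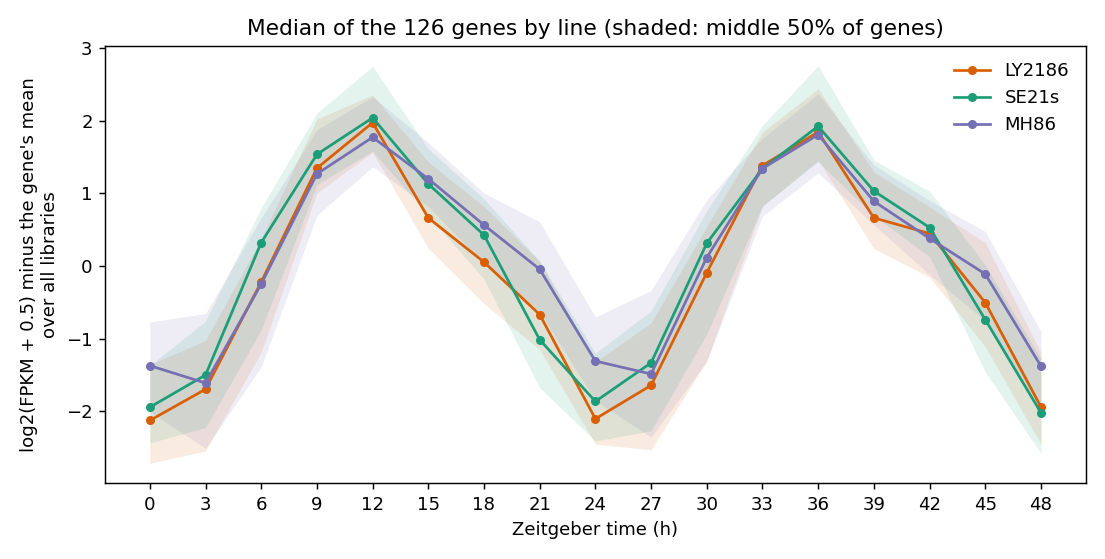
The horizontal axis is Zeitgeber time (h), the vertical axis is log2(FPKM + 0.5) minus each gene's mean over all libraries, lines join the median of the 126 genes in each library, and shading spans the middle 50% of genes. The medians at ZT12 were 1.97 in LY2186, 2.04 in SE21s and 1.77 in MH86, and at ZT21 they were -0.67, -1.01 and -0.04 in the same order.

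The 2 members with the widest swings were unlisted loci. LOC_Os01g50622 averaged 311 FPKM and swung 908-fold. At ZT12 and ZT36 it read 991 and 1078 FPKM in LY2186, 1121 and 1288 FPKM in SE21s and 1134 and 1099 FPKM in MH86. All 6 of these values were high and close together. At hour 0 it read 7.25, 7.45 and 18.6 FPKM in LY2186, 0.395, 1.42 and 1.41 FPKM in SE21s and 42.5, 43.3 and 38.6 FPKM in MH86. At that hour the 3 lines did not overlap, with MH86 high, SE21s low and LY2186 between them.

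LOC_Os03g08580 averaged 107 FPKM and swung 785-fold. It read 632 and 499.8 FPKM at ZT12 and ZT36 in LY2186, 401 and 269.7 FPKM in SE21s and 387 and 614 FPKM in MH86. It was listed at 0 at ZT3 in LY2186 and in SE21s. Its median over 17 libraries was 29.6 FPKM in LY2186, 6.84 FPKM in SE21s and 71.1 FPKM in MH86. At the lower end of the choice, LOC_Os08g44530 had a range of 3.02 log2 units and LOC_Os05g46290 had 3.03, both inside the limit, while LOC_Os09g10600 and LOC_Os06g09950 had 2.99 log2 units each and stayed out. LOC_Os11g04200 and LOC_Os11g03670 entered at means of 5.36 and 5.41 FPKM, and LOC_Os03g04470 and LOC_Os07g15460 stayed out at 4.91 and 4.83 FPKM.

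Gene lists of 20 kinds, covering the clock, flowering, light sensing, sugar and nitrogen use, stress, hormones, water channels and walls, had 182 tested genes. Of these, 27 were highest at hour 12, and 3 met the limits on both level and swing: LUX/PCL1 (LOC_Os01g74020), PIP2;7 (LOC_Os09g36930) and CESA2 (LOC_Os03g59340). No member came from the lists for flowering, starch breakdown, nitrogen, jasmonate, abscisic acid or the antenna. Starch breakdown had the most genes with a highest mean at hour 12, 5 of 12 tested, but none of them met both limits.

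LUX/PCL1 encodes a DNA-binding subunit of the evening complex in Arabidopsis. It averaged 106 FPKM and swung 447-fold. It read 694 and 773 FPKM at ZT12 and ZT36 in LY2186, 434 and 321 FPKM in SE21s and 416 and 666 FPKM in MH86. SE21s and MH86 overlapped there, while both LY2186 values stood above the other lines. The lowest, median and highest of 17 libraries were 0.303, 21.7 and 773 FPKM in LY2186, 0.160, 3.80 and 434 FPKM in SE21s and 0.262, 40.1 and 666 FPKM in MH86.

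LUX/PCL1, which entered the choice through its swing and peak hour, had a wider pooled range than its listed partners in the evening complex. ELF4a and ELF4b were also highest at hour 12, but their pooled ranges were 1.13 and 0.51 log2 units against 8.80 for LUX/PCL1. ELF3-2 was highest at hour 15 with a range of 4.95 log2 units, and ELF3-1 at hour 0 with 1.44. The evening genes PRR1/TOC1, GI and FKF1 were highest 3 h earlier, at hour 9, with ranges of 5.04, 9 and 7.50 log2 units. LHY, the morning repressor, was at its lowest of 2.40 FPKM at hour 12, the hour at which LUX/PCL1 averaged 551 FPKM.

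PIP2;7 encodes a plasma membrane water channel, and was the most abundant of the listed members at 201 FPKM on average. At ZT9 and ZT33 it read 751 and 343 FPKM in LY2186, 1110.2 and 809 FPKM in SE21s and 506 and 398 FPKM in MH86. At ZT12 and ZT36 it read 396 and 436 FPKM in LY2186, 758 and 1172 FPKM in SE21s and 813 and 503 FPKM in MH86. SE21s was the highest line at 16 of the 17 times, all but ZT12. Hours 9 and 12 formed a plateau, and its highest hour was 9 in LY2186 and SE21s and 12 in MH86. PIP2;7 was chosen for its pooled peak hour, so its place among the 11 tested aquaporins follows from the choice. Of the others, 8 were highest at hour 3, 1 at hour 6 and 1 at hour 18.

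CESA2 encodes a catalytic subunit of cellulose synthase and averaged 6.36 FPKM, near the lower limit of the choice. Its lowest, median and highest values were 0.194, 4.77 and 16.6 FPKM in LY2186, 0.158, 3.70 and 17.7 FPKM in SE21s and 0.495, 5.81 and 23.3 FPKM in MH86. Its peak was broad, and on day 2 it was highest at ZT36 in LY2186 and MH86 and at ZT39 in SE21s. CESA1 and CESA6, also highest at hour 12, averaged 1.60 and 1.07 FPKM with ranges of 0.75 and 0.65 log2 units.

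**Figure D3:**
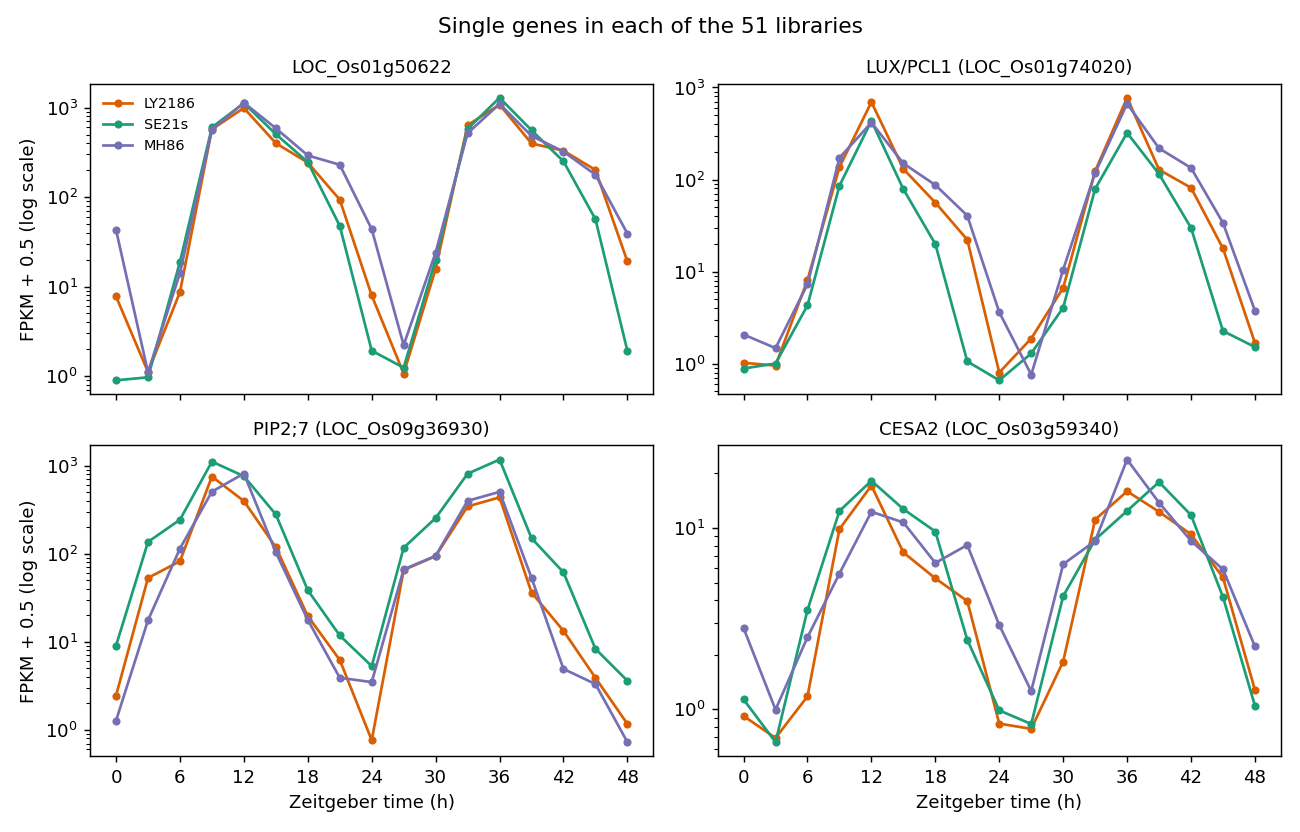
Each panel gives FPKM + 0.5 on a log axis against Zeitgeber time (h) for 1 gene, with 1 point per library and 1 line per rice line. In LOC_Os01g50622 the lines lay close together at ZT12 and ZT36, and in both LOC_Os01g50622 and LUX/PCL1 SE21s was the lowest line at ZT21, ZT24 and ZT45, while PIP2;7 stayed highest in SE21s at most times.

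Exact zeros occurred in a minority of members. Of the 126 members, 17 held at least 1 value of 0. In 6 of them, 25 zeros were doubtful, because 2 or more libraries of the line at adjacent times or at that hour on another day reached 10 FPKM. Such a 0 can be a failed estimate. LOC_Os08g11490 was listed at 0 in 44 of 51 libraries and LOC_Os12g03980, at a mean of 323 FPKM, in 5. With these zeros set missing, the same rule gave 128 genes, 124 of them shared. LOC_Os08g10530 was listed at 0 in all 17 MH86 libraries, while it read 0.172 to 20.9 FPKM in LY2186 and 0.150 to 43.0 FPKM in SE21s.

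By the chromosome number in the locus identifier, 31 members lay on chromosome 1, or 24.6% of them, against 14.2% of all genes tested. Each other chromosome held 5 to 13 members. No test was run on this split.

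In mean level over the 17 times, members leaned low in the hybrid. Levels were compared with limma across the 16842 genes that averaged 1 FPKM or more, with time as a block, and a gene was called at a Benjamini-Hochberg adjusted p below 0.05. All 126 members passed this filter. Against the mid-parent, the mean of both parents on the log2 scale, 45 members were lower in LY2186 and 6 were higher. That is 35.7% and 4.76% of the members, against 10.5% lower and 16.3% higher over all genes tested. The members were chosen for a wide daily swing, so here and in the comparisons below the 2 sets are not like for like. Shares for the other strongly cycling genes are not given, so a lean particular to these members is not read from them. The median difference was -0.22 log2 units in the members and 0.02 over all genes. This difference was small for most genes: 1 of the 45 lower members and 2 of the 6 higher ones differed by at least 2-fold. Of these 2, 1 was LOC_Os08g10530, which was listed at 0 in every MH86 library. The size of its difference depends on the constant added to FPKM before log2, so no fold is read for it.

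The low side appeared against either parent. LY2186 was lower than SE21s in 41 members and higher in 20, where 24.5% and 32.8% of all genes were called. LY2186 was lower than MH86 in 47 members and higher in 9, where 17.6% and 14.8% of all genes were called. The 9 include LOC_Os08g10530, a call that rests on its zeros in MH86. These contrasts share the LY2186 libraries, so they are not independent of each other. LY2186 was below both parents in 12 members, or 9.52%, against 1.89% of all genes, and above both in 1 member, or 0.794%, against 2.29%.

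LOC_Os01g74160 was among the clearest members below the mid-parent. It read 33 and 77 FPKM at ZT12 and ZT36 in LY2186, 159.8 and 126 FPKM in SE21s and 13.4 and 66.2 FPKM in MH86. LY2186 lay nearer to MH86 than to SE21s, and its mean level differed from the mid-parent by -1.06 ± 0.18 log2 units (SE, adjusted p = 2.88e-05). LOC_Os05g49060 had medians of 48.6 FPKM in LY2186, 101 FPKM in SE21s and 38.3 FPKM in MH86, and differed from the mid-parent by -0.79 ± 0.13 (adjusted p = 2.00e-05). In both genes LY2186 thus lay near the lower parent.

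LOC_Os10g42040 was clearest below MH86. It read 494 and 1035 FPKM at ZT12 and ZT36 in LY2186, 502 and 553 FPKM in SE21s and 905 and 2929 FPKM in MH86. Its mean level differed between LY2186 and MH86 by -1.78 ± 0.19 log2 units (adjusted p = 3.36e-09). LOC_Os05g51830 was -0.59 ± 0.09 below MH86 (adjusted p = 1.18e-06). Its medians were 19.5 FPKM in LY2186, 24.4 FPKM in SE21s and 27.3 FPKM in MH86.

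LOC_Os02g14440 was the 1 member above both parents. Its lowest, median and highest values were 0.119, 9.39 and 66.0 FPKM in LY2186, 0, 0.770 and 56.7 FPKM in SE21s and 0, 1.91 and 17.3 FPKM in MH86. The ranges overlapped and the medians did not lie close. LY2186 was above the mid-parent by 1.30 ± 0.23 log2 units (adjusted p = 4.70e-05), a call that was lost on day 2 alone at 0.74 (adjusted p = 0.156). On day 1 the gene was highest in LY2186 at ZT15, at 66.0 FPKM.

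Against SE21s, 2 loci stood for opposite directions. LOC_Os08g26230, the most abundant member at 743 FPKM on average, read 2656 and 2260.1 FPKM at ZT12 and ZT36 in LY2186 and 1323 and 717 FPKM in SE21s, a mean level difference of 1.43 ± 0.19 log2 units (adjusted p = 1.62e-07). LOC_Os04g49620 read 47.2 and 42.9 FPKM in LY2186 and 97.4 and 115 FPKM in SE21s, a difference of -1.06 ± 0.08 (adjusted p = 8.65e-14). At these 2 times LY2186 and SE21s did not overlap in either gene. LOC_Os09g36730 was higher in LY2186 by 0.79 ± 0.12 (adjusted p = 2.20e-06) and LOC_Os06g01790 lower by -1.24 ± 0.12 (adjusted p = 1.06e-10).

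Of the listed members, LUX/PCL1 was higher in LY2186 than in SE21s by 1.01 ± 0.27 log2 units (adjusted p = 0.0016) and was not called against MH86 (-0.45 ± 0.27, adjusted p = 0.204) or the mid-parent (0.28 ± 0.23, adjusted p = 0.385). PIP2;7 was lower in LY2186 than in SE21s by -1.42 ± 0.19 (adjusted p = 1.19e-07) and lower than the mid-parent by -0.66 ± 0.16 (adjusted p = 0.003). Its difference from MH86 was 0.10 ± 0.19 (adjusted p = 0.714). CESA2 was lower in LY2186 than in MH86 by -0.54 ± 0.18 (adjusted p = 0.0165), while against SE21s it differed by -0.25 ± 0.18 (adjusted p = 0.228). Of 15 tested clock genes, 6 were above the mid-parent and 0 below, and of 11 aquaporins 1 was above and 4 below, beside 16.3% of all genes above and 10.5% below.

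The parents differed from each other in more members. SE21s was lower than MH86 in 55 members and higher in 32, or 43.7% and 25.4% of them, against 40.4% and 28.6% of all genes. These shares lie close to those of all genes. The 32 higher members include LOC_Os08g10530, a call that rests on its zeros in MH86. LOC_Os04g49620 was higher in SE21s by 1.36 ± 0.08 log2 units (adjusted p = 2.27e-17) and LOC_Os06g01790 by 1.52 ± 0.12 (adjusted p = 2.00e-13). LOC_Os08g26230 was lower in SE21s by -2.28 ± 0.19 (adjusted p = 1.73e-12), and read 1323 and 717 FPKM at ZT12 and ZT36 in SE21s and 2627 and 5021 FPKM in MH86. LOC_Os07g44190 was lower by -1.16 ± 0.12 (adjusted p = 3.64e-10). LUX/PCL1 was lower in SE21s by -1.46 ± 0.27 (adjusted p = 1.18e-05) and PIP2;7 higher by 1.52 ± 0.19 (adjusted p = 1.25e-08). The summed grain markers had medians of 19.9 FPKM in SE21s and 41.7 FPKM in MH86, and the part of this in the members' differences was not tested.

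The mean level calls rest on comparing lines within each time, and they thin out on single days. With day 1 alone LY2186 was below the mid-parent in 26 members and above in 6, and with day 2 alone it was below in 9 and above in 0. Shares of all genes in these single-day fits are not given. Fewer calls in all genes and a weaker difference in the members therefore cannot be told apart. Without the time block, which puts the daily swing into the spread, the calls against SE21s, MH86 and the mid-parent numbered 3, 1 and 1, and those between the parents 13. Differences in the shape of the daily curve also enter the spread of these tests.

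**Figure D4:**
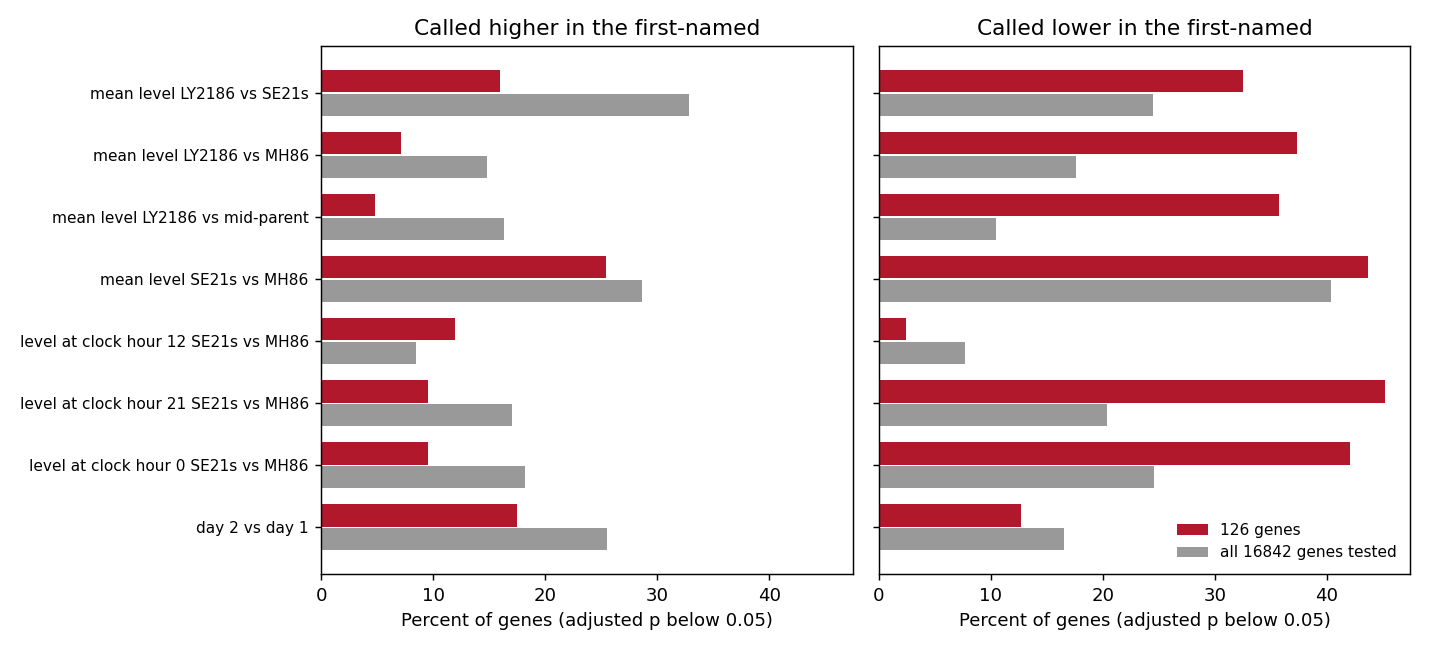
Bars give the percent of genes with an adjusted p below 0.05, on an axis that starts at 0, in the 126 genes (red) and in all 16842 genes tested (grey). The left panel shows genes higher and the right panel genes lower in the first-named line or day. In LY2186 against the mid-parent the red bar is 35.7% and the grey bar 10.5% on the lower side. The comparisons at hours 21 and 0 were chosen after the values were seen.

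At hour 12 itself the lines differed in few members. With 2 libraries per line at this hour, the spread was pooled over all 24 cells of line and clock hour. This fit had no term for day, so shifts between the 2 days entered the spread and can lower the number of calls. LY2186 was higher than SE21s in 1 member and lower in 5, against 3.65% and 1.75% of all genes. LY2186 was higher than MH86 in 3 members and lower in 0, against 2.37% and 0.914% of all genes. At an unadjusted p below 0.05, 20 members differed between LY2186 and SE21s and 8 between LY2186 and MH86. Shares of all genes at that unadjusted threshold are not given, so these 2 counts are not read as a trait of the members. SE21s was higher than MH86 in 15 members and lower in 3, against 8.48% and 7.70% of all genes. The 15 include LOC_Os08g10530, listed at 0 in every MH86 library. They also include LOC_Os08g11490 (adjusted p = 0.0107), the gene listed at 0 in most libraries. The size of its difference depends on the constant added to FPKM before log2, so no fold is read for it. Both calls rest on zeros, and those of LOC_Os08g11490 may be failed estimates.

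LOC_Os06g14620 gave 1 of the larger differences at hour 12. It read 19.9 and 19.3 FPKM in LY2186, 49.7 and 60.6 FPKM in SE21s and 13.6 and 5.89 FPKM in MH86. SE21s lay above both other lines, and it was higher than MH86 by 2.54 ± 0.40 log2 units (adjusted p = 1.18e-05), while LY2186 was lower than SE21s by -1.46 ± 0.40 (adjusted p = 0.0215). LOC_Os04g49620 was lower in LY2186 than in SE21s by -1.23 ± 0.27 (adjusted p = 0.00372). LOC_Os09g36730 read 38.7 and 35.1 FPKM in LY2186, 17.1 and 12.2 FPKM in SE21s and 34.3 and 41.9 FPKM in MH86, and SE21s was the low line. It was higher in LY2186 than in SE21s by 1.32 ± 0.34 (adjusted p = 0.0139) and lower in SE21s than in MH86 by -1.36 ± 0.34 (adjusted p = 0.00418). LOC_Os12g38170 was lower in SE21s than in MH86 by -2.23 ± 0.76 (adjusted p = 0.0425). LOC_Os01g32830 read 90.8 and 64.7 FPKM in LY2186 and 42.9 and 29.4 FPKM in MH86, a difference of 1.1 ± 0.25 (adjusted p = 0.00781). LOC_Os08g10530 was called higher than MH86 in LY2186 and in SE21s, but it is listed at 0 in MH86, so no fold is given.

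These hour 12 calls depend on both libraries of a line. The counts that follow leave 1 library per line at this hour, and shares of all genes in those fits are not given. Without ZT12 the calls numbered 1 for LY2186 against SE21s, 1 for LY2186 against MH86 and 12 for SE21s against MH86, and without ZT36 they numbered 0, 1 and 6. LUX/PCL1 was not called at hour 12 in any pair: the differences were 0.97 ± 0.41 log2 units for LY2186 against SE21s (adjusted p = 0.219), 0.48 ± 0.41 for LY2186 against MH86 (adjusted p = 0.820) and -0.49 ± 0.41 for SE21s against MH86 (adjusted p = 0.475). PIP2;7 and CESA2 were not called at hour 12 either. The clock list had 0 calls at hour 12 in the hybrid's 2 comparisons and 1 of 15 genes higher in SE21s than in MH86.

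Whether the wave leaned early or late was measured as the level at hour 15 minus the level at hour 9. Within lines the median member's value was -0.78 log2 units in LY2186, -0.35 in SE21s and -0.18 in MH86, and the hybrid's value was thus the most negative. Gene by gene, the difference between lines was rarely called, in a fit that also had no term for day. Between LY2186 and SE21s 0 members were called higher and 0 lower by limma, against 0.0178% and 0.0238% of all genes, with 5 members at an unadjusted p below 0.05. Between LY2186 and MH86 1 member was higher and 0 lower, against 0.0653% and 0.0238% of all genes, with 23 at an unadjusted p below 0.05. That 1 member was listed at 0 in MH86 and gives no difference in timing, as described below. The median difference between LY2186 and MH86 was -0.58 log2 units in the members and 0.05 over all genes, with 18 of 126 members above 0. Between SE21s and MH86 0 members were higher and 1 was lower, against 0.137% and 0.0653% of all genes, with 14 at an unadjusted p below 0.05. Shares of all genes at the unadjusted threshold are not given, so the unadjusted counts are not read as a trait of the members.

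The member called between LY2186 and MH86 was LOC_Os08g10530, which was listed at 0 in every MH86 library, so its value in MH86 is fixed at 0. It read 1.44 and 1.60 FPKM at hour 9 and 20.9 and 13.2 FPKM at hour 15 in LY2186. The call therefore reflects the change within LY2186 and gives no difference in timing between the lines, which leaves 0 members with such a difference in this pair. The member called between SE21s and MH86 was LOC_Os08g17390, which read 11.5 and 9.42 FPKM at hour 9 in SE21s and 2.50 and 1.97 FPKM in MH86. At hour 15 it read 50 and 51.2 FPKM in SE21s and 37.9 and 43.3 FPKM in MH86. SE21s was higher at both hours, and more so at hour 9, which gave a difference of -1.69 ± 0.37 (adjusted p = 0.0448). With 1 library per line at these hours, this difference was -1.77 without ZT9 and ZT15 and -1.60 without ZT33 and ZT39, of similar size but no longer called.

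A fit of the whole curve with a 24 h cosine and sine term per line, planned as an alternative to the lean, tests amplitude and timing together. It called 23 members between LY2186 and SE21s, 9 between LY2186 and MH86 and 60 between SE21s and MH86. That is 18.3%, 7.14% and 47.6% of the members, against 12.6%, 2.33% and 27.5% of all genes tested. This fit does not separate a shift in hour from a change in swing, and the hour 15 against hour 9 measure called 0, 1 and 1 members in the same pairs. The members were chosen for a wide daily swing and all genes tested were not, so the shares above are not like for like. Shares for the other strongly cycling genes are not given, and no excess in the members is read from this fit.

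After these results were known, median differences of the members were examined at all 8 clock hours for 2 contrasts, and 3 further tests were chosen from them. For SE21s minus MH86 the member medians were -0.58, -0.04, 0.05, 0.26, 0.13, -0.03, 0.00 and -0.68 log2 units at hours 0, 3, 6, 9, 12, 15, 18 and 21. Over all genes the medians lay between -0.13 and 0.01. The 2 lowest hours, 21 and 0, were then tested, and hours 3, 6, 9, 15 and 18 were not. Because the hours were picked for their size, the p-values below are descriptive of those hours.

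At hour 21, SE21s was lower than MH86 in 57 members and higher in 12, or 45.2% and 9.52% of them, against 20.4% and 17.0% of all genes. At hour 0, with 3 libraries per line, SE21s was lower in 53 members and higher in 12, where 24.6% and 18.2% of all genes were called. The members were chosen for a wide daily swing, so these shares and those of all genes are not like for like. LOC_Os08g10530, listed at 0 in every MH86 library, was among the 12 higher members at each hour. Of the members, 41 were lower at both hours, or 71.9% of those lower at hour 21 and 77.4% of those lower at hour 0. The matching overlap over all genes is not given, so this overlap is not read as a trait of the members. The 2 hours use different libraries but share 1 estimate of the spread. With ZT21 or ZT45 left out, 1 library per line remains at hour 21, and shares of all genes in those fits are not given. Without ZT21, 25 members were lower at hour 21 and 9 higher, and without ZT45, 45 were lower and 3 higher.

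LUX/PCL1 was low in SE21s at both hours. At ZT21 and ZT45 it read 0.559 and 1.77 FPKM in SE21s and 40.1 and 33.4 FPKM in MH86, with 21.7 and 17.4 FPKM in LY2186. The parents did not overlap, and the difference of SE21s from MH86 was -4.58 ± 0.41 log2 units (adjusted p = 1.78e-10). At hour 0 it was -1.67 ± 0.34 (adjusted p = 0.000175). CESA2 was lower in SE21s at hour 21 by -1.12 ± 0.37 (adjusted p = 0.018), at 1.91 and 3.66 FPKM in SE21s and 7.55 and 5.41 FPKM in MH86, a call lost without ZT21 (adjusted p = 0.559). PIP2;7 ran the other way at hour 0 and was higher in SE21s by 1.91 ± 0.54 (adjusted p = 0.00473), a call lost without ZT0 (adjusted p = 0.0801).

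Unlisted loci gave large differences at these hours. LOC_Os10g25060 was listed at 0 at ZT21 and read 0.254 FPKM at ZT45 in SE21s, against 5.83 and 4.64 FPKM in MH86, and was lower by -3.21 ± 0.30 log2 units on the log2(FPKM + 0.5) scale (adjusted p = 4.45e-10). LOC_Os10g05230 read 32.7 and 39 FPKM in SE21s and 82.5 and 75.4 FPKM in MH86 at hour 21, lower by -1.13 ± 0.13 (adjusted p = 1.51e-08). LOC_Os01g50622, with its hour 0 values given above, was lower in SE21s at hour 0 by -4.82 ± 0.31 (adjusted p = 3.67e-14). LOC_Os09g31380 read 0.780, 1.04 and 0.718 FPKM in SE21s and 5.28, 6.09 and 5.87 FPKM in MH86 at hour 0, lower by -2.22 ± 0.14 (adjusted p = 1.56e-14). LOC_Os01g09540 ran against these: at hour 0 it read 92.6, 64.9 and 72.3 FPKM in SE21s and 10.3, 15.8 and 4.25 FPKM in MH86, higher by 3.02 ± 0.53 (adjusted p = 3.06e-05).

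For LY2186 minus the mid-parent the member medians were -0.33, -0.24, -0.32, 0.05, 0.03, -0.38, -0.16 and -0.15 log2 units at hours 0 to 21. Members were thus near the mid-parent at hours 9 and 12 and below it at the other 6 hours, while the medians of all genes lay between 0.01 and 0.05. A contrast built to match this shape, hours 9 and 12 minus the other hours, was then tested. The member median was 0.29 log2 units and the median of all genes 0.01, and 100 of 126 members lay above 0. Gene by gene, 1 member was called higher and 0 lower, against 0.0713% and 0.0475% of all genes, with 35 at an unadjusted p below 0.05. The share of all genes at that unadjusted threshold is not given. The called member was LOC_Os01g20110, at 0.94 ± 0.18 (adjusted p = 0.022), which read 98.6 and 74.1 FPKM at ZT12 and ZT36 in LY2186 and 5.62, 6.10 and 9.56 FPKM at hour 0. Its difference was 0.92 under median-ratio scaling, 1.12 on day 1 alone and 0.86 on day 2 alone, and 0 members were called in these fits, the last 2 of which hold fewer libraries. The shape was thus seen in the medians, which were used to choose it, and was called in 1 single gene.

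**Figure D5:**
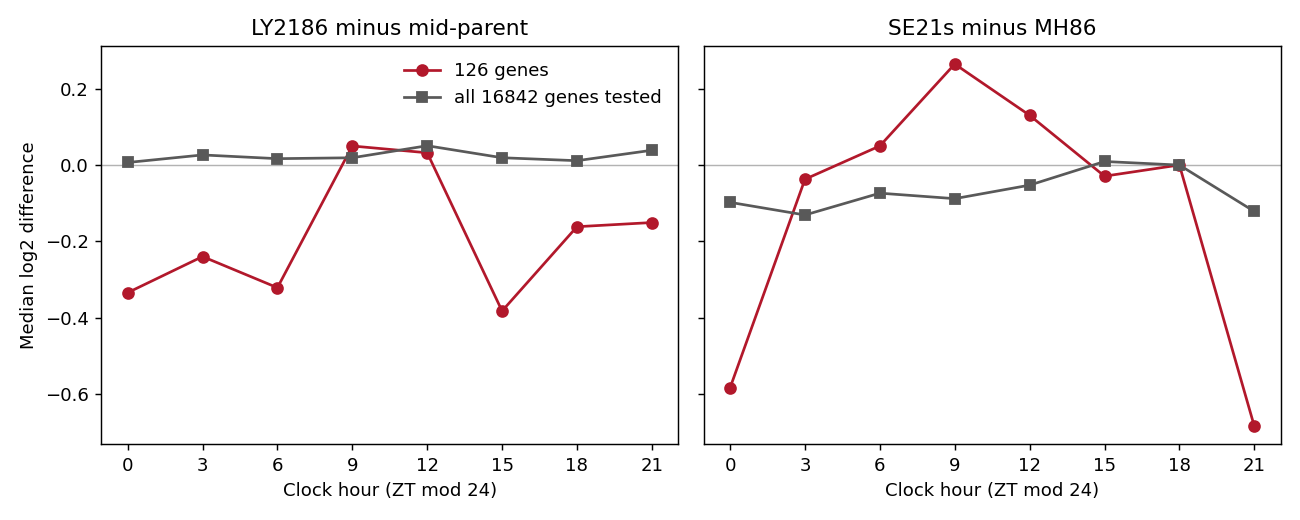
The vertical axis is the median log2 difference at each clock hour (horizontal axis, h) for LY2186 minus the mid-parent (left) and SE21s minus MH86 (right), in the 126 genes (red circles) and in all 16842 genes tested (grey squares). The red line dips to -0.58 at hour 0 and to -0.68 at hour 21 in the right panel, and in the left panel it lies close to the grey line at hours 9 and 12.

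Levels shifted between the days in some members. Day 2 was compared with day 1 at the same hours and lines, without ZT48. Day 2 was higher in 22 members and lower in 16, against 25.5% and 16.5% of all genes, which puts the members' shares of 17.5% and 12.7% below those of all genes. None of the called members differed by 2-fold. LOC_Os08g25390 was higher on day 2 by 0.43 ± 0.09 log2 units (adjusted p = 0.000771) and LOC_Os05g51830 by 0.27 ± 0.06 (adjusted p = 0.00129). LOC_Os09g26810 was lower on day 2 by -0.56 ± 0.11 (adjusted p = 0.000528) and LOC_Os10g39150 by -0.51 ± 0.11 (adjusted p = 0.00111). CESA2 was higher on day 2 by 0.30 ± 0.09 (adjusted p = 0.0131), while LUX/PCL1 and PIP2;7 were not called (0.15 ± 0.11, adjusted p = 0.269, and -0.32 ± 0.18, adjusted p = 0.148). Under median-ratio scaling 17 members were higher and 20 lower, so the balance of directions depended on the scaling.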

How the data were processed

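RNA of flag leaves from LY2186, SE21s and MH86 was measured in 51 libraries. The authors deposited 1 table of FPKM values. TopHat2 and Cuffdiff made them, per the submitters' processing notes, while tool versions, genome build and annotation were not given in the sources used here. No column lacked a sample. All tests used log2(FPKM + 0.5) of the 16842 genes averaging 1 FPKM or more, on which scale changes of low genes are understated. The tests came from limma 3.58.1 (R 4.3.3) with trend and robust options of its variance prior, were two-sided and were adjusted by Benjamini-Hochberg over all genes. Tables were handled with pandas 2.3.3 and numpy 2.4.6 in Python 3.11.15. Errors of differences are standard errors. Mean levels used time as a block, and hour 12 and lean tests used 1 fit of line by clock hour without a term for day. Other pseudocounts, filters, scalings, blocks and left-out times or lines were tried.

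The members and gene lists were chosen with earlier results of these data known. Named genes are all listed members, up to 2 unlisted members per direction and comparison with the smallest adjusted p, and the members at the limits of the choice. The tests at hours 21 and 0 and of hours 9 and 12 against the rest were chosen after seeing medians at 8 hours in 2 contrasts. No identifier of 34653 matched the RefSeq table, so no sequence or coordinate is printed.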

Additional observations from a re-analysis of the deposited data

Results flagged for a closer look

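The shape of the daily curve differed between lines in some members by tests of the difference itself. With a 24 h cosine and sine term per line, limma called 23 members between LY2186 and SE21s, or 18.3% of them against 12.6% of all genes tested. It called 9 between LY2186 and MH86, or 7.14% against 2.33% of all genes, and 60 between SE21s and MH86, or 47.6% against 27.5% of all genes. These tests cover timing and amplitude together, and the pairs share libraries. The members were chosen for a wide daily swing, so their shares and those of all genes are not like for like.

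In the level at hour 15 minus hour 9, LOC_Os08g17390 differed between SE21s and MH86 by -1.69 log2 units. The value of 3.09 log2 units for LOC_Os08g10530 between LY2186 and MH86 is the change within LY2186 alone, since MH86 is listed at 0 throughout, and it is no difference in timing between the lines. In the contrast of hours 9 and 12 with the other hours, chosen after the values were seen, LOC_Os01g20110 differed between LY2186 and the mid-parent by 0.94 log2 units.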

How the results depend on the processing

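Of 129 alternative values of the counts of members, 101 stayed within 1.5 times the reported count and 28 did not. Of the alternative values of single named genes, 647 kept their side of the threshold, 48 kept their direction but were no longer called and 3 became called. Of called genes 0 turned direction, while 13 values of the listed members that had not been called changed sign. Without the time block the calls in mean level were 3 for LY2186 against SE21s, 1 against MH86, 1 against the mid-parent and 13 for SE21s against MH86, since the daily swing then enters the spread. The calls against the mid-parent were 32 on day 1 alone and 9 on day 2 alone, and those against MH86 were 22 on day 2 alone. With a pseudocount of 0.1, the calls at hour 12 between LY2186 and SE21s were 3 and the lean calls between LY2186 and MH86 were 0, and with a pseudocount of 1 the lean calls between SE21s and MH86 were 2. The 24 h cosine and sine fit called 23, 9 and 60 members in the 3 pairs where the lean called 0, 1 and 1. Leaving out 1 time gave 0 to 1 calls at hour 12 for LY2186 against SE21s, 1 for LY2186 against MH86, 6 to 12 for SE21s against MH86, 34 to 48 at hour 21 and 52 at hour 0, and leaving out the hour 9 and 15 libraries of 1 day gave 0 lean calls in each pair. The contrast of hours 9 and 12 with the rest called 0 members under median-ratio scaling, 0 on day 1 alone and 0 on day 2 alone. The day comparison called 15 members without LY2186 and 24 without MH86. The cause of these changes was not tested except for the block.

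Median-ratio scaling moved the share of higher genes among all called between days to 46.4%, against 60.8% as reported, and that among the few genes called in the lean of LY2186 against MH86 to 53.8%, against 73.3%. It moved the median of all genes at hour 21 for SE21s minus MH86 to -0.01 log2 units, against -0.12, and 14 members were then higher and 54 lower. The rule itself gave 113 members with a pseudocount of 1, all shared, 121 under median-ratio scaling, 120 shared, 139 on day 1 alone, 101 shared, and 144 on day 2 alone, 107 shared. LY2186, SE21s and MH86 alone gave 150, 134 and 105 genes with 98, 89 and 75 shared, where 150 is the upper limit. Fragment counts are unknown, so the depth that limits low values cannot be stated.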
